A study of Mus musculus with 6 samples.

Results

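The genes described here encode the enzymes that place and remove methyl and acetyl groups on histones, many of which also act on other proteins. Members were taken by symbol, as genes beginning with Kdm, Kmt, Prmt, Hdac, Sirt or Kat and a digit, or with Setd, Ehmt or Suv39h, and Kdm5d was left out. This gave 73 of the 24736 genes in the expression table, made up of 17 lysine demethylases, 22 lysine methyltransferases (the Setd family included), 8 arginine methyltransferases, 11 histone deacetylases, 7 sirtuins and 8 lysine acetyltransferases. Polyadenylated RNA was sequenced from wild-type (WT) mouse embryonic stem cells (ESCs) at 0 h and from epiblast-like cells (EpiLCs) after differentiation for 48 h, each in 3 biological replicates. The ESCs were kept in knockout DMEM with LIF (1000 U/ml) and 10% serum. Serum-free N2/B27 medium with bFGF (10 ng/ml) and LGK974 (5 µM) was used for the EpiLCs, and LGK974 blocks the secretion of WNT ligands. The comparison addresses how the levels of these enzymes differ between ESCs and cells resembling the epiblast after implantation. All 6 libraries come from the same cell line, XY HM1 TetON, in which the doxycycline-responsive transactivator rtTA is expressed from the Rosa26 locus. According to the study's methods, ESCs were propagated on inactivated mouse embryonic fibroblasts, which were removed by letting them settle on plastic before differentiation. The methods do not say whether the 0 h samples went through that step. Serum, medium and time changed together with cell state and cannot be told apart from it.

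Histone methylation is set by transferases that use S-adenosylmethionine and is reversed by the flavin-dependent KDM1 enzymes and by the JmjC demethylases, which need iron, oxygen and 2-oxoglutarate. What a methyl group does depends on its residue. H3K4 methylation lies at promoters and enhancers, H3K36 methylation along transcribed genes, H3K27 methylation at Polycomb targets, and H3K9 and H4K20 methylation in heterochromatin. Lysine acetylation, which accompanies transcription, is placed by acetyltransferases, among them those of the GNAT and MYST families. It is removed by zinc-dependent histone deacetylases and by sirtuins, which consume NAD. Passage from ESC to epiblast-like state is known as a time when enhancers are exchanged and heterochromatin is rebuilt.

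The libraries held between 16967741 and 35096210 expected counts, the ESC libraries being the shallower, and 3 counts corresponded to between 0.0855 and 0.177 CPM (counts scaled to the library total). That limit covers counting error only. Naive ESC markers summed to between 1465 and 1936 TPM (transcript abundance scaled for length and library total) in ESCs and between 47.1 and 67.3 TPM in EpiLCs, and 6 of 6 were lower. The 5 EpiLC markers summed to between 292.9 and 399 TPM in ESCs and between 2055 and 2125 TPM in EpiLCs, and all 5 were higher. Markers of other cells also moved between the groups. The 14 fibroblast markers summed to 269.2, 1271 and 96.5 TPM in ESC replicates 1, 2 and 3, compared with 59.5, 86.1 and 48.4 TPM for EpiLCs. Of the 13 that were tested, 7 were lower in EpiLCs and 0 were higher (Lum was not tested). Primitive endoderm markers fell in 5 of 6 cases, with sums of 35.4 to 63.6 TPM in ESCs, and of at most 5.43 TPM in EpiLCs, and 3 of 3 tested 2-cell-like markers fell, from sums of 7.20 to 20.6 TPM to sums of 1.12 to 1.41 TPM. Of the 72 tested enzyme genes, 10 followed the order of the fibroblast markers among the ESC libraries, with replicate 2 highest and replicate 3 lowest, against 26.0% of all genes tested. These 10 were 4 of the 8 arginine methyltransferases (Prmt2, Prmt3, Prmt5 and Prmt6), 3 of the 7 sirtuins (Sirt1, Sirt2 and Sirt7), Hdac7, Setdb1 and Suv39h1, and of them Hdac7, Setdb1 and Sirt1 were called lower in EpiLCs, as the fibroblast markers were. Without ESC replicate 2, all 42 enzyme genes called below were called again, but the fibroblast sums of ESC replicates 1 and 3 are also above those of all EpiLC libraries. What part these other cells have in the differences was not tested. In bulk RNA, fewer cells of a type and less RNA per cell cannot be told apart.

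Most of the enzyme genes were expressed in both states, and their changes were small and went both ways. A mean of at least 10 TPM was reached by 61 of the 73 in ESCs and by 58 in EpiLCs. Of the 72 tested, 22 were higher in EpiLCs, 20 were lower and 30 were not called at an adjusted p of at most 0.05 (edgeR's quasi-likelihood test, Benjamini-Hochberg over all genes tested). The 42 called make 58.3% of the members, and 45.4% of all 14468 genes tested were called, 22.6% as higher and 22.8% as lower. Without EpiLC replicate 1, 26 members were called, 13 in each direction, and all 26 were among the 42. Only 6 members passed the threshold with a log2 fold change beyond 1 in size (2 higher and 4 lower), whereas 20.2% of all genes tested did. Since most of these enzymes are well expressed, the same counts were taken among genes with a mean of at least 10 TPM over the 6 libraries. There 36 of 60 members (60.0%) were called against a background of 44.9%, and 3 of 60 (5.0%) were called with a log2 fold change beyond 1 against 9.87%. The median log2 fold change of the members was -0.0028 (interquartile range -0.38 to 0.30), and that of all genes tested was -0.0017 (interquartile range -0.42 to 0.36). TPM of the ESC and EpiLC libraries did not overlap for 52 of the 72 members (72.2%), against 59.5% of all genes tested.

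**Figure D1:**
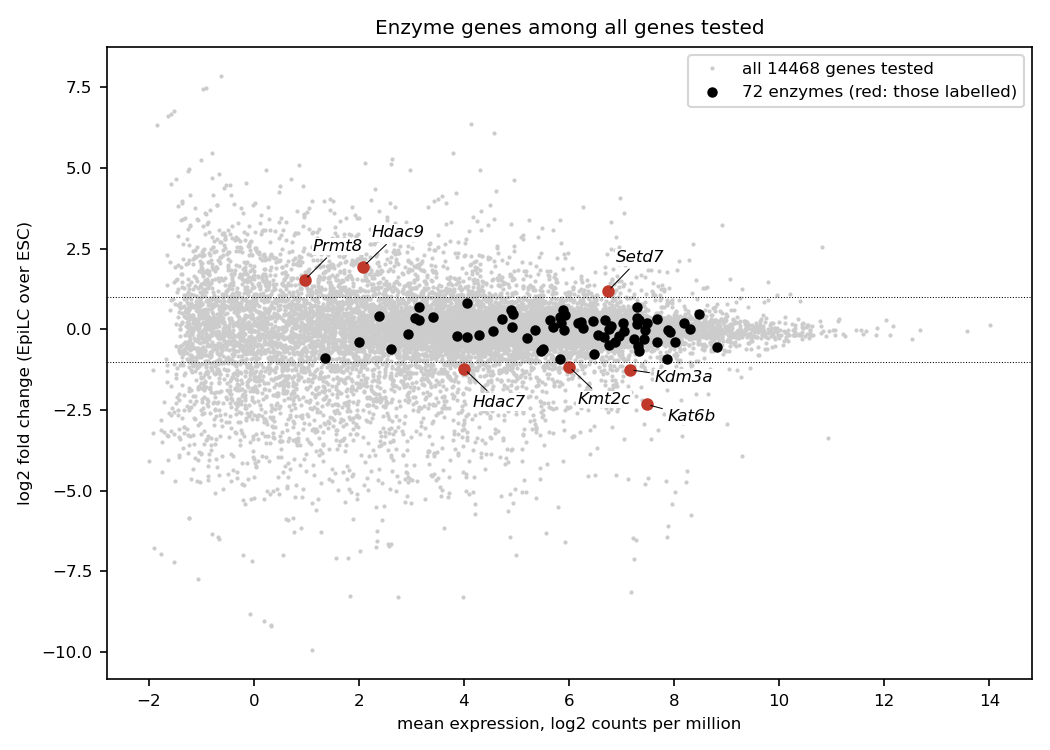
Log2 fold change from ESC to EpiLC against mean expression (log2 CPM) for all genes tested (grey) and for the 72 tested enzyme genes (black, and red where labelled), with dotted lines at a log2 fold change of 1 in either direction. Most of the enzyme genes lie between the dotted lines, and the 7 labelled genes are those beyond them, of which Prmt8 was not called.

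**Figure D2:**
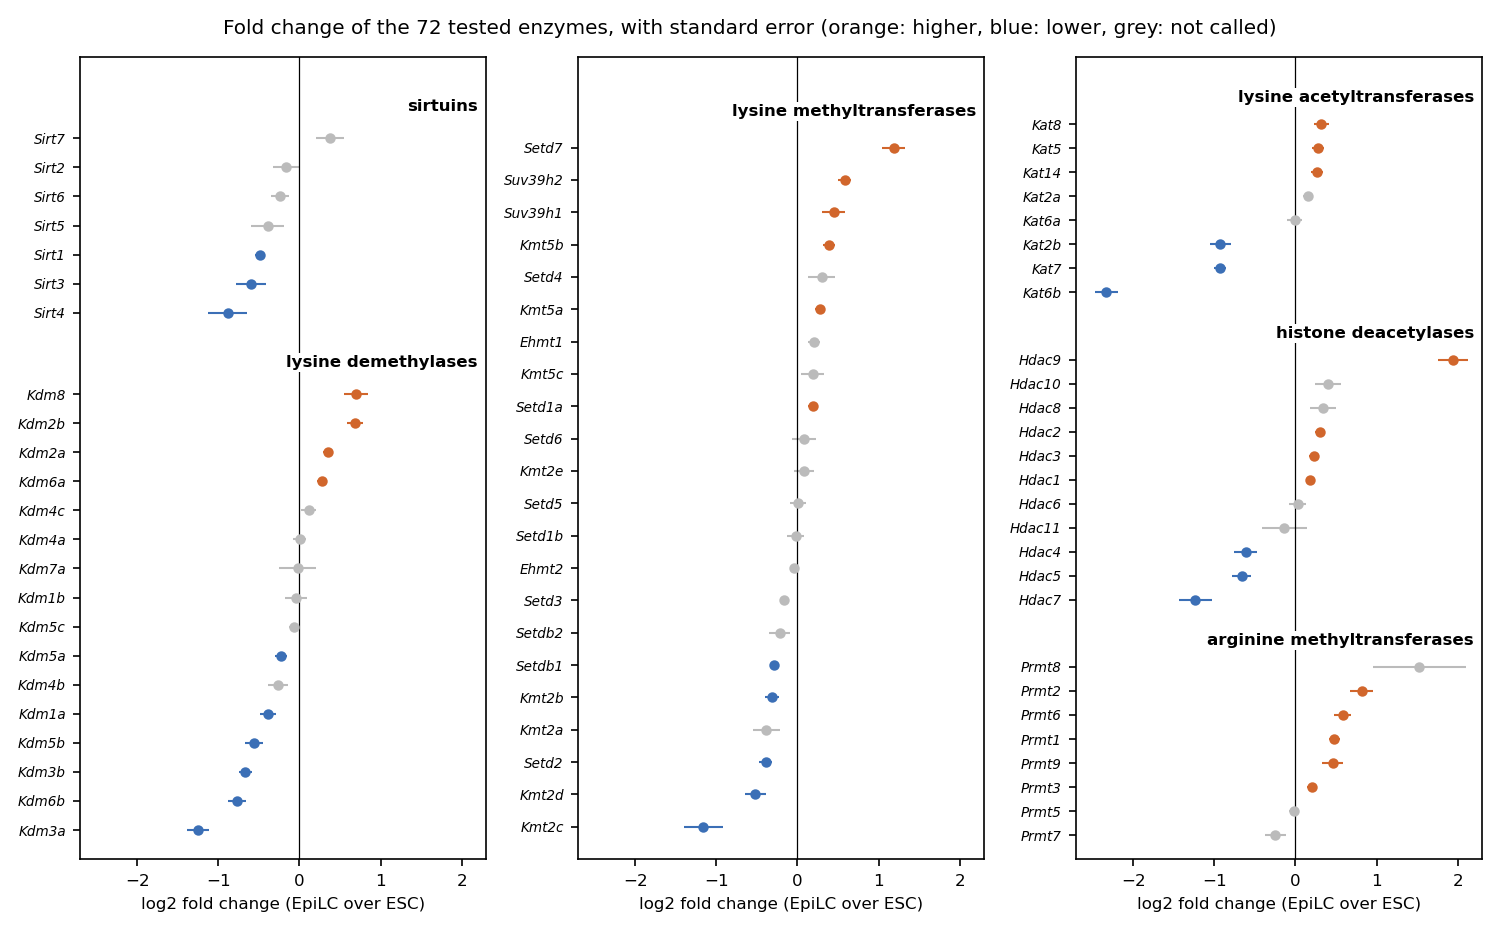
Log2 fold change from ESC to EpiLC (horizontal axis) of each of the 72 tested enzyme genes by class, with bars of 1 standard error. Orange marks the 22 genes called higher, blue the 20 called lower and grey the 30 not called, and the sirtuins hold no orange point and the arginine methyltransferases no blue point.

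The largest called change was the fall of Kat6b, which encodes the MYST acetyltransferase also known as Morf (chromosome 14, 21499216 to 21672478 on mm10). Kat6b reached 72.5, 79.8 and 103 TPM in ESC replicates 1, 2 and 3, against 17.8, 18.3 and 16.6 TPM in EpiLC replicates 1, 2 and 3. The EpiLC libraries lay close together and far below the lowest ESC library. The level was 5.03-fold higher in ESCs, which is -2.33 as a log2 fold change (standard error 0.14, adjusted p = 9.3e-05). Its paralogue Kat6a (Moz) was measured at 37.5, 36.9 and 44.2 TPM in ESCs and 40.8, 43.2 and 38.4 TPM in EpiLCs, and these ranges overlapped (log2 fold change -0.008, adjusted p = 0.949). Among TPM of the pair, Kat6a therefore took 34.1%, 31.6% and 30.0% in ESCs and 69.6%, 70.3% and 69.8% in EpiLCs. Kat6b had the higher level of the pair in each ESC library and Kat6a in each EpiLC library.

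Among the 8 lysine acetyltransferases, 3 rose, 3 fell and 2 were not called, and the 3 falls were the larger changes. Of all genes tested, 45.4% were called (22.6% higher and 22.8% lower). Besides Kat6b, the other MYST enzyme to fall was Kat7 (Hbo1), which acetylates histones H3 and H4 with Brpf and Jade partners. Kat7 was measured at 105, 103 and 113 TPM in ESCs and 57.0, 56.1 and 61.2 TPM in EpiLCs, with no overlap (log2 fold change -0.93, standard error 0.07, adjusted p = 0.000192). Kat2b (Pcaf), an H3K9 acetyltransferase of the SAGA and ATAC complexes, was measured at 30.2, 37.3 and 42.1 TPM in ESCs and 18.6, 21.6 and 19.7 TPM in EpiLCs. It too fell without overlap (log2 fold change -0.93, standard error 0.13, adjusted p = 0.0018). Kat2a (Gcn5), which occupies the same place in those complexes as Kat2b, had the highest TPM of the GNAT members, with 104, 99.1 and 105 TPM in ESCs and 120, 122 and 113 TPM in EpiLCs. Every EpiLC library was above every ESC library, but the difference did not pass the threshold (log2 fold change 0.15, standard error 0.06, adjusted p = 0.0628). The 3 acetyltransferases that rose did so by 0.27 to 0.32 on the log2 scale. They were Kat14 of the ATAC complex (0.27), Kat5 (Tip60) of the NuA4 complex (0.28) and Kat8 (Mof), which acetylates H4K16 (0.32, standard error 0.09, adjusted p = 0.0228). These rises were not called when ESC replicate 1 or EpiLC replicate 1 was left out, which gave 0 rises in the class, and 1 rise was called without EpiLC replicate 2 or 3. The 3 falls were called in each of these fits. Summed TPM of the 8 acetyltransferases taken by symbol was 498.4 ± 36.3 in ESCs and 417.7 ± 6.65 in EpiLCs (SD over 3 libraries each), without overlap (exact permutation p = 0.1, two-sided, the smallest that 3 against 3 can give). By subclass, the MYST sum was 314.9 ± 27.7 TPM in ESCs, against 223.6 ± 4.31 TPM in EpiLCs (exact permutation p = 0.1), whereas the GNAT sum was 183.5 ± 8.62 TPM and 194.2 ± 2.6 TPM (SD, n = 3 each, exact permutation p = 0.2).

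Of the 11 zinc-dependent histone deacetylases, 4 rose, 3 fell and 4 were not called. This makes 63.6% called, against 45.4% of all genes tested (22.6% higher and 22.8% lower). Class I holds the nuclear deacetylases of the Sin3, NuRD, CoREST and NCoR complexes, and 3 of its 4 members rose slightly. Hdac1 was measured at 297, 292 and 302 TPM in ESCs and 341, 347 and 360 TPM in EpiLCs. The groups did not overlap, yet the change was the smallest of any called member (log2 fold change 0.18, standard error 0.05, adjusted p = 0.0299). That of Hdac2, the close paralogue of Hdac1, was larger (0.31, adjusted p = 0.00647), and its share of the pair accordingly grew, with Hdac1 taking 60.5% ± 0.50 of the pair in ESCs and 58.4% ± 0.55 in EpiLCs (SD, n = 3 each). Hdac3 of the NCoR and SMRT complexes rose by 0.23 (adjusted p = 0.0188), and X-linked Hdac8, which deacetylates cohesin, was not called (0.34, adjusted p = 0.124). The call of Hdac1 was lost without ESC replicate 1 and without any of the 3 EpiLC replicates, that of Hdac3 without ESC replicate 1 or EpiLC replicate 1 or 3, and 2 rises in the family remained without ESC replicate 1, EpiLC replicate 1 or EpiLC replicate 3.

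Class IIa deacetylases, which shuttle between nucleus and cytoplasm under the control of kinases and have little catalytic activity of their own, moved in opposite directions, with 1 rise and 3 falls among 4. Hdac9 was measured at 0.63, 0.50 and 0.65 TPM in ESCs (39, 24 and 50 counts) and at 2.78, 2.86 and 3.12 TPM in EpiLCs (228, 209 and 217 counts). Its groups lay far apart, although its level remained the lowest of the subclass in both states. The rise was 3.85-fold (log2 fold change 1.94, standard error 0.19, adjusted p = 0.000425) and was the largest called rise among the members (chromosome 12, 34047580 to 34917095). Hdac7 was measured at 13.2, 13.4 and 8.32 TPM in ESCs, against 4.69, 5.45 and 5.34 TPM in EpiLCs. The lowest ESC library, replicate 3, still lay above every EpiLC library (log2 fold change -1.23, standard error 0.20, adjusted p = 0.00306). The ESC levels of Hdac7 followed the fibroblast marker order, and without ESC replicate 2 it was still called. Hdac4 was measured at 13.4, 11.8 and 16.8 TPM in ESCs and 9.18, 10.2 and 9.09 TPM in EpiLCs. The fall of Hdac4 (-0.61, standard error 0.14, adjusted p = 0.0116) was not called without EpiLC replicate 1 (adjusted p = 0.0523). Hdac5 fell by 0.66 on the log2 scale (adjusted p = 0.00491). Hdac4 and Hdac9 were 1 of only 2 pairs of paralogues among 20 in which both genes were called and in opposite directions, and Hdac4 took 95.9% ± 0.37 of the pair's TPM in ESCs and 76.5% ± 1.87 in EpiLCs (SD, n = 3 each). None of the 3 class IIb and IV members was called, namely the tubulin deacetylase Hdac6 (0.03), the polyamine deacetylase Hdac10 (0.40, adjusted p = 0.077) and Hdac11 (-0.14, adjusted p = 0.711). Hdac11 was spread widely in ESCs, with a mean of 6.73 ± 2.44 TPM (SD, n = 3).

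Of the 6 members called with a log2 fold change beyond 1, 3 had a window in the RefSeq table (GRCm38.p6, mm10) that ends at the outermost start of the gene, and in 2 of these the window is clear of exons in the GENCODE annotation (Hdac9 and Hdac7). The 250 bases upstream of the start are given 5′ to 3′ in the direction of transcription, and capitals mark each CG, since unmethylated CG-rich promoters are where enzymes with a CXXC domain, such as Kdm2b, bind.
Hdac9, chr12:34917096-34917345, minus strand: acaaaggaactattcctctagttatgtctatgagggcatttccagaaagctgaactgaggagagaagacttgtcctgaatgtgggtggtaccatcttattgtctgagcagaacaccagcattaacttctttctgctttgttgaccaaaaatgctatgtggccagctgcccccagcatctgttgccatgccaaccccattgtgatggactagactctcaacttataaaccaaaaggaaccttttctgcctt
Hdac7, chr15:97844503-97844752, minus strand: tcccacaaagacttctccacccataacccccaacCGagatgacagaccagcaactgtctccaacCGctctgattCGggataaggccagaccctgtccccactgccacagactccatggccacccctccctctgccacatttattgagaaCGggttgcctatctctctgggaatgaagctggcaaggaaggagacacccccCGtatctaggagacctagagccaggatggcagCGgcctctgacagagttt
The Hdac9 window, of the member with the largest called rise, holds no CG, and the Hdac7 window, of a member that fell, holds 6. The window of Setd7 holds 17 CG. Over the 26 members with such a window the median was 13 CG, and over 5922 genes tested it was 15 CG. A GC box (GGGCGG, either strand) lay in 61.5% of the members' windows, in 59.2% of those of genes tested and in 32.7% of all 32851 windows in the table, and in neither window shown. Counts per gene do not show which start was in use, and these letters were compared with no binding data.

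**Figure D3:**
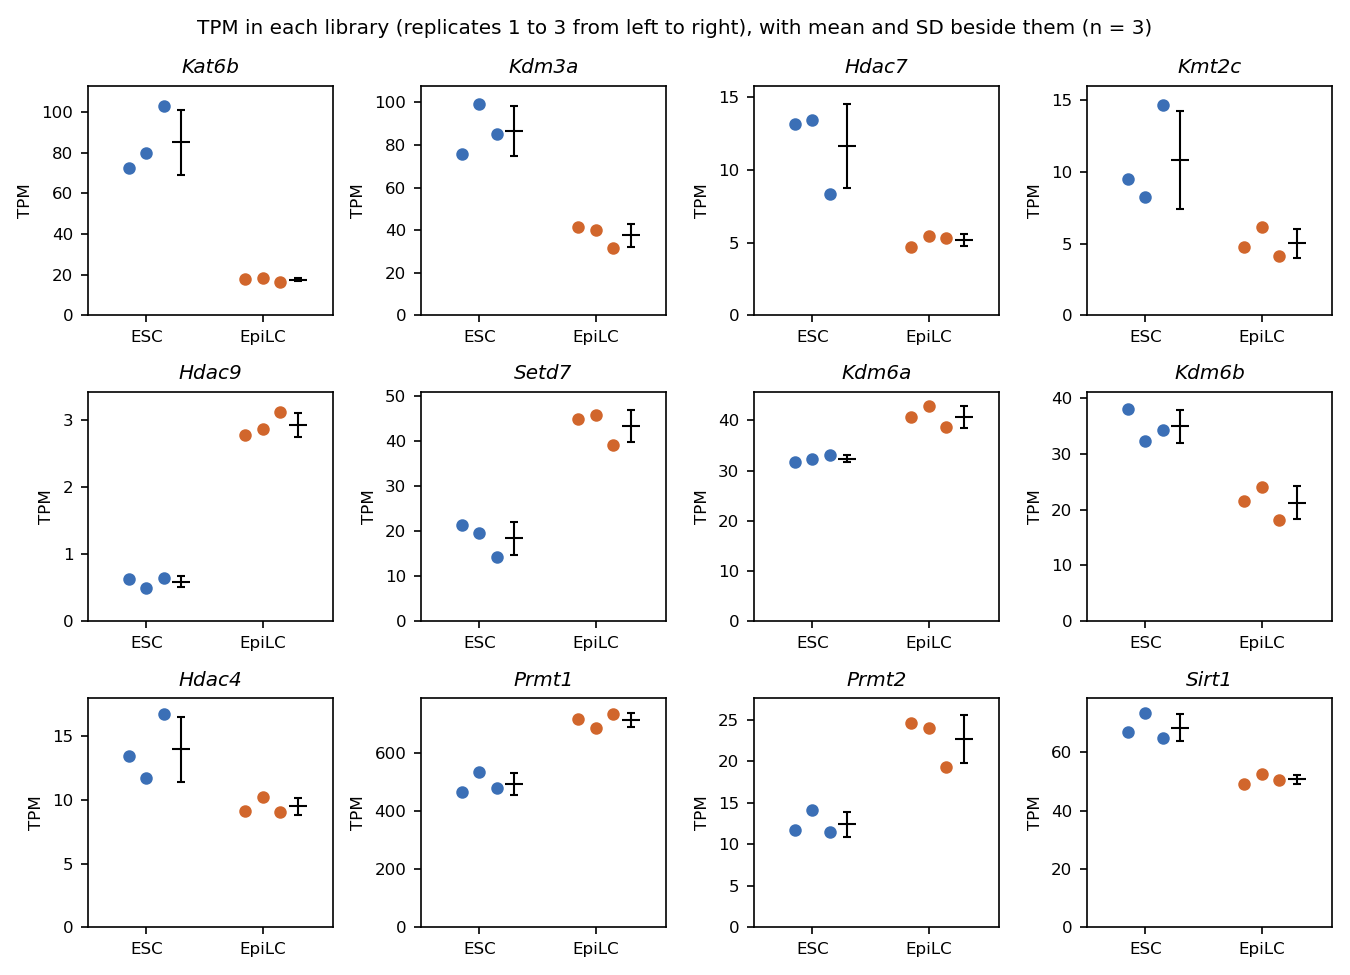
TPM in each of the 3 ESC and 3 EpiLC libraries for 12 enzyme genes, with the mean and SD (n = 3) of each group drawn beside the points. The EpiLC points of Kat6b (16.6 to 18.3 TPM) and Kdm3a (31.5 to 41.4 TPM) lie below every ESC point, and those of Setd7 (39.3 to 45.7 TPM) and Hdac9 (2.78 to 3.12 TPM) lie above.

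None of the 7 sirtuins rose and 3 fell (42.9% called, against 45.4% of all genes tested). The most abundant, Sirt1, is a nuclear deacetylase of histones and transcription factors. Sirt1 was measured at 66.9, 73.6 and 64.9 TPM in ESCs and 49.3, 52.5 and 50.3 TPM in EpiLCs, and the groups did not overlap (log2 fold change -0.49, standard error 0.07, adjusted p = 0.00149). Its ESC levels followed the order of the fibroblast markers. The other falls were those of the mitochondrial sirtuins Sirt3 (-0.60, adjusted p = 0.0334) and Sirt4 (-0.89, standard error 0.24, adjusted p = 0.0205). Sirt4 was low throughout, at 4.34, 3.67 and 5.55 TPM in ESCs and 2.77, 2.60 and 2.29 TPM in EpiLCs. Sirt3 and Sirt4 were not called when any EpiLC replicate was left out, which left Sirt1 as the 1 sirtuin called, and Sirt3 was not called without ESC replicate 3 either. The nuclear enzymes Sirt6 (-0.24, adjusted p = 0.118) and Sirt7 (0.38, adjusted p = 0.111), the cytoplasmic Sirt2 (-0.17, adjusted p = 0.413) and the mitochondrial desuccinylase Sirt5 (-0.39, adjusted p = 0.155) were not called. Without ESC replicate 2, which had the highest fibroblast marker sum, Sirt7 was called as 1 rise.

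Of the 16 lysine demethylases tested, 4 rose, 6 fell and 6 were not called, and the falls included enzymes of H3K9 and H3K4. This makes 62.5% called, against 45.4% of all genes tested (22.6% higher and 22.8% lower). Of the 5 tested H3K9 enzymes of the KDM3 and KDM4 groups, 2 were called (40.0%), both as lower. Kdm3a, a demethylase of mono- and dimethylated H3K9 (chromosome 6, 71588970 to 71632990), was measured at 75.9, 99.1 and 84.9 TPM in ESCs, against 41.4, 40.1 and 31.5 TPM in EpiLCs. Every EpiLC library was well below every ESC library (log2 fold change -1.25, standard error 0.13, adjusted p = 0.000596). Kdm3b, its paralogue, was measured at 58.8, 52.6 and 61.2 TPM in ESCs and 38.5, 38.5 and 35.9 TPM in EpiLCs. It fell without overlap by 0.67 on the log2 scale (standard error 0.08, adjusted p = 0.000736). Summed TPM of the pair went from 144.2 ± 8.69 in ESCs to 75.3 ± 6.91 in EpiLCs (SD, n = 3 each, exact permutation p = 0.1, the smallest possible). None of the 3 tested KDM4 enzymes, which act on trimethylated H3K9, was called, with log2 fold changes of 0.002 for Kdm4a, -0.27 for Kdm4b and 0.11 for Kdm4c. Kdm4d, the fourth, had 1, 0 and 1 counts in ESCs and 8, 5 and 6 in EpiLCs and was the 1 member too low to be tested.

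Among the demethylases of H3K4, 3 of 5 were lower and 0 higher, where 22.8% of all genes tested were lower, and without EpiLC replicate 1, 2 or 3 the count was 1 of 5 (Kdm5b). Kdm1a (Lsd1), the flavin-dependent enzyme of the CoREST and NuRD complexes and the most abundant demethylase, was measured at 201, 178 and 229 TPM in ESCs and 159, 162 and 162 TPM in EpiLCs. The EpiLC libraries were tightly grouped below a wider ESC range (log2 fold change -0.38, standard error 0.10, adjusted p = 0.0174), and the call was lost without any of the EpiLC replicates. Kdm5b, which removes trimethylation from H3K4, was measured at 169, 155 and 205 TPM in ESCs and 123, 130 and 119 TPM in EpiLCs. Its groups did not overlap (log2 fold change -0.56, adjusted p = 0.00639). Kdm5a fell by 0.22 (adjusted p = 0.0451) and was the 1 called member whose TPM overlapped between the groups. Its call was lost under most alternatives. Kdm1b (-0.04, adjusted p = 0.81) and X-linked Kdm5c (-0.07, adjusted p = 0.361) were not called.

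The demethylases that rose act on other residues. Kdm2b, an H3K36 demethylase whose CXXC domain brings Polycomb complexes to unmethylated CG islands, was measured at 65.9, 52.3 and 53.5 TPM in ESCs and 85.7, 92.5 and 87.2 TPM in EpiLCs. All EpiLC libraries were higher (log2 fold change 0.69, adjusted p = 0.00212), and Kdm2a, of the same activity, rose by 0.35 (adjusted p = 0.00284). Both demethylases of trimethylated H3K27 were called, in opposite directions. X-linked Kdm6a (Utx) was measured at 31.7, 32.3 and 33.2 TPM in ESCs and 40.6, 42.9 and 38.6 TPM in EpiLCs (log2 fold change 0.28, standard error 0.06, adjusted p = 0.0101). Kdm6b (Jmjd3) was measured at 38.1, 32.2 and 34.3 TPM in ESCs and 21.6, 24.1 and 18.1 TPM in EpiLCs (log2 fold change -0.77, standard error 0.11, adjusted p = 0.00198). In neither gene did the groups overlap, and Kdm6a took 45.4%, 50.1% and 49.2% of the pair in ESCs and 65.3%, 64.0% and 68.1% in EpiLCs. Kdm8, a JmjC protein, was low but rose, from 6.13, 5.00 and 6.03 TPM to 10.4, 8.78 and 9.71 TPM (log2 fold change 0.70, standard error 0.15, adjusted p = 0.00984), and was not called without EpiLC replicate 1 (adjusted p = 0.0524). Kdm7a was not called (-0.02, adjusted p = 0.942).

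**Figure D4:**
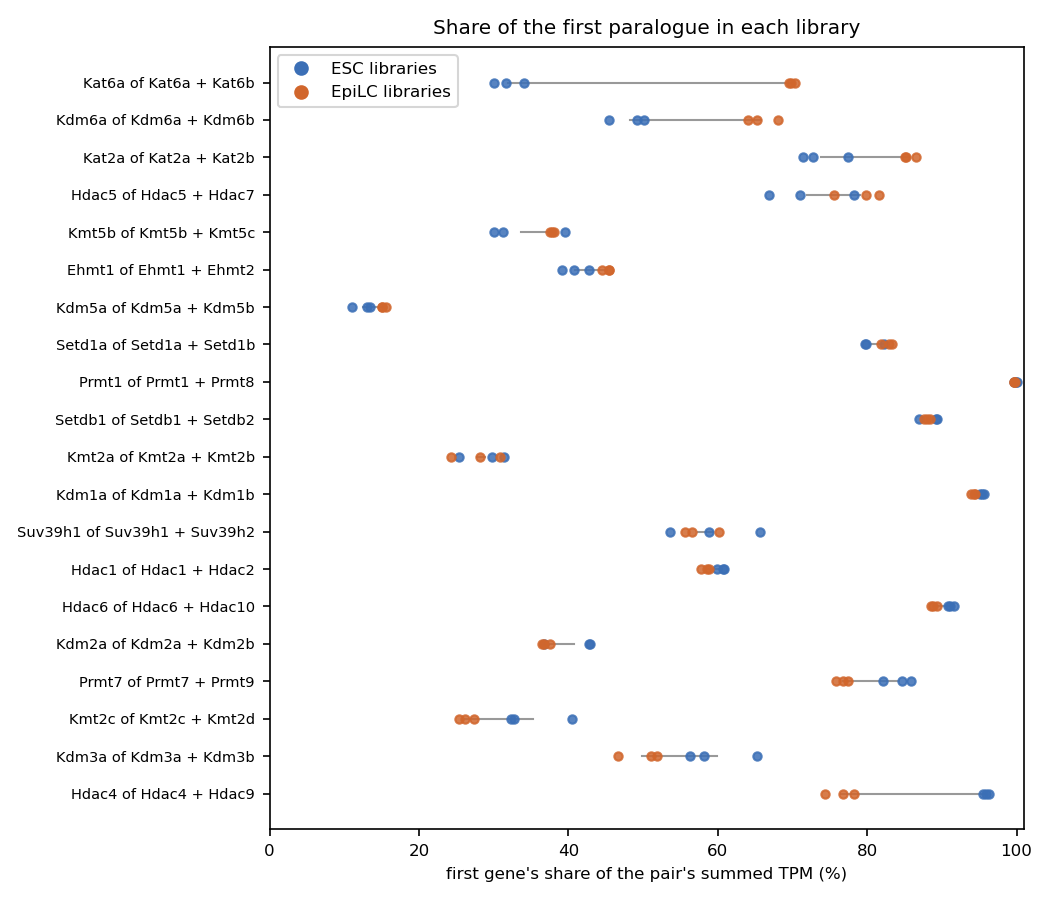
Share of the first gene in the summed TPM of each paralogue pair (percent), in each ESC (blue) and EpiLC (orange) library, with a line joining the group means. The shares of Kat6a (30.0% to 34.1% in ESCs and 69.6% to 70.3% in EpiLCs) and of Kdm6a (45.4% to 50.1% and 64.0% to 68.1%) are higher in EpiLCs, that of Hdac4 is lower, and most other pairs keep their shares within a few percentage points.

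Lysine methyltransferases were divided evenly, with 6 rises, 5 falls and 11 genes not called among 22. The 50.0% called is near the 45.4% of all genes tested, which were also divided evenly (22.6% higher and 22.8% lower). In the KMT2 and SETD1 group, which holds the main H3K4 methyltransferases and the related SET domain protein Kmt2e, 3 of 7 fell and 1 rose. Kmt2c (Mll3), which with Kmt2d places monomethylation of H3K4 at enhancers (chromosome 5, 25271795 to 25498855), was measured at 9.48, 8.22 and 14.7 TPM in ESCs and 4.79, 6.13 and 4.15 TPM in EpiLCs. The ESC libraries were spread widely but all lay above the EpiLC libraries (log2 fold change -1.16, standard error 0.24, adjusted p = 0.00825). Without ESC replicate 3, the log2 fold change of Kmt2c was -0.86. Kmt2d (Mll4) fell by 0.52 (adjusted p = 0.017) and Kmt2b by 0.31 (adjusted p = 0.0212), while Setd1a, which trimethylates H3K4 at promoters, rose by 0.19 (adjusted p = 0.0447). The call of Setd1a was lost without ESC replicate 1 or 3 or EpiLC replicate 1 or 2, that of Kmt2b without any of the EpiLC replicates and that of Kmt2d without EpiLC replicate 1. Kmt2a (-0.38, adjusted p = 0.103), Kmt2e (0.08) and Setd1b (-0.02) were not called. Setd2, which trimethylates H3K36, fell by 0.39 (adjusted p = 0.00668). Without EpiLC replicate 1, 3 falls were called in the class.

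Among the H3K9 methyltransferases, the paralogues Suv39h1 and Suv39h2, which trimethylate H3K9 in pericentric heterochromatin, both rose. Suv39h2 was measured at 24.9, 21.5 and 23.8 TPM in ESCs and 34.6, 36.6 and 37.5 TPM in EpiLCs, without overlap (log2 fold change 0.59, standard error 0.08, adjusted p = 0.00166). X-linked Suv39h1 was measured at 35.5, 41.0 and 27.5 TPM in ESCs and 52.1, 45.8 and 48.6 TPM in EpiLCs. The groups did not overlap here either (0.45, standard error 0.14, adjusted p = 0.0387), but the call was lost without ESC replicate 1 or any EpiLC replicate. Setdb1, which silences retroelements, fell by 0.29 (adjusted p = 0.00481) and followed the fibroblast marker order among the ESC libraries, and its relative Setdb2 was not called (-0.22, adjusted p = 0.192). Neither subunit of the G9a and GLP dimer, which dimethylates H3K9, was called, with log2 fold changes of 0.20 for Ehmt1 (adjusted p = 0.0612) and -0.045 for Ehmt2 (adjusted p = 0.495). Ehmt1 was called as higher with DESeq2, with both limma fits and without ESC replicate 1.

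The H4K20 enzymes rose in 2 of 3 cases. Kmt5a, which monomethylates H4K20 and had the highest TPM of the lysine methyltransferases, was measured at 123, 110 and 111 TPM in ESCs and 139, 149 and 143 TPM in EpiLCs. The groups did not overlap (log2 fold change 0.27, standard error 0.06, adjusted p = 0.0115), and Kmt5b, which adds the further methyl groups, rose by 0.39 (adjusted p = 0.005). Kmt5c was not called (0.19, adjusted p = 0.307). Of the 5 other SETD genes, only Setd7 was called. Setd7, which monomethylates H3K4 in vitro and many proteins other than histones (chromosome 3, 51515318 to 51560823), was measured at 21.5, 19.5 and 14.2 TPM in ESCs and 45.0, 45.7 and 39.3 TPM in EpiLCs. Each EpiLC library was above each ESC library by a wide margin, and the 2.27-fold rise (log2 fold change 1.19, standard error 0.15, adjusted p = 0.00102) was the other rise beyond 1 among the members. Log2 fold changes of the actin methyltransferase Setd3 (-0.16), of Setd4 (0.30), of Setd5 (0.007) and of Setd6 (0.08) did not pass the threshold.

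Arginine methyltransferases rose in 5 of 8 cases and none was called lower, with a median log2 fold change of 0.47. This makes 62.5% called, against 45.4% of all genes tested, of which 22.6% were called as higher and 22.8% as lower. Of the 5 that rose, Prmt2, Prmt3 and Prmt6 followed the fibroblast marker order among the ESC libraries, and the part of those cells in their values was not tested. Prmt1, the main enzyme of asymmetric arginine dimethylation and the member with the highest TPM of all, was measured at 465, 536 and 479 TPM in ESCs and 718, 687 and 736 TPM in EpiLCs. The groups lay well apart (log2 fold change 0.48, standard error 0.07, adjusted p = 0.00232). Of the other type I enzymes, Prmt2 was measured at 11.7, 14.2 and 11.5 TPM in ESCs and 24.7, 24.1 and 19.4 TPM in EpiLCs and had the largest called rise of the class (0.82, standard error 0.14, adjusted p = 0.00384). Prmt6, which methylates H3R2, rose by 0.58 (adjusted p = 0.00442), and Prmt3, which acts on a ribosomal protein, by 0.20 (adjusted p = 0.0404). The call of Prmt3 was lost in 5 of the 6 fits that leave out a library, all but that without ESC replicate 2. Prmt8 was barely expressed in ESCs and varied there, with 1.49, 0.21 and 0.71 TPM (37, 4 and 23 counts) against 2.60, 1.67 and 3.10 TPM in EpiLCs. Its log2 fold change of 1.53 carried a standard error of 0.57 and was not called (adjusted p = 0.0664), although it was called with DESeq2, with both limma fits and without ESC replicate 1, the ESC library in which it was highest. Among the type II and III enzymes, which dimethylate arginine symmetrically or add a single methyl group, Prmt9 rose by 0.46 (adjusted p = 0.0246), a call lost without EpiLC replicate 2 or 3. Prmt5, the main symmetric enzyme, was measured at 189.1 ± 3.20 TPM in ESCs, against 193.0 ± 8.03 TPM in EpiLCs (SD, n = 3 each) and was not called (-0.02, adjusted p = 0.787), nor was Prmt7 (-0.25, adjusted p = 0.158). Summed TPM of the 5 type I members was 582.8 ± 41.9 in ESCs and 836.7 ± 27 in EpiLCs (SD, n = 3 each), a ratio of 1.44 (exact permutation p = 0.1, the smallest possible). Carm1, a type I enzyme that the symbol rule left out, is not in this sum. It rose from 156.4 ± 16.9 TPM in ESCs to 203.8 ± 5.32 TPM in EpiLCs (SD, n = 3 each, log2 fold change 0.33, adjusted p = 0.0193). Without EpiLC replicate 2 or EpiLC replicate 3, 3 rises were called in the class, and without ESC replicate 2 there was 1 fall, that of Prmt7.

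Shares within 20 pairs of paralogues were compared as the first gene's percentage of the pair's summed TPM, which is scaled for transcript length. The ESC and EpiLC shares did not overlap in 12 of the 20 pairs (for TPM of single genes, a different quantity, the groups did not overlap in 59.5% of all genes tested), and the median shift was 4.05 percentage points. With 3 libraries against 3 the exact permutation p could not fall below 0.1, or 0.167 after Benjamini-Hochberg adjustment over the 20 pairs. The shift of the Kat6 pair (38.0 points) was followed by those of the Hdac4 and Hdac9 pair (-19.5) and of the Kdm6 pair (17.6). Kat2a took 73.8% ± 3.21 of its pair with Kat2b in ESCs and 85.6% ± 0.85 in EpiLCs, and Kdm3a took 59.9% ± 4.78 of its pair with Kdm3b in ESCs and 49.9% ± 2.73 in EpiLCs (SD, n = 3 each).

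The enzyme genes varied more between ESC libraries than between EpiLC libraries. Their median coefficient of variation of TPM was 10.7% in ESCs and 5.3% in EpiLCs, and 52 of 72 had the larger value in ESCs (72.2%). The same held for 74.8% of all genes tested with a mean of at least 1 TPM, whose medians were 12.3% and 6.77%. Among the 5 X-linked members, 2 were called (40.0%, against 45.4% of all genes tested), both as higher, and of these Suv39h1 lost its call in 4 of the 6 fits that leave out a library while Kdm6a kept its call in all 6. RSEM had divided reads among genes for 8 members, whose expected counts were not whole in every library (Kat14, Kdm5b, Kdm6a, Prmt1, Prmt2, Prmt8, Setdb1 and Setdb2), and their values depend on that division.

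Of 30 other genes for histone writers and erasers that do not carry these names, such as those of the Smyd family, 4 rose, 12 fell and 14 were not called, with a median log2 fold change of -0.09. This makes 53.3% called, against 45.4% of all genes tested (22.6% higher and 22.8% lower). Each of the limma fits called 5 as higher and 8 as lower in this list. The largest called fall was that of Smyd1, a SET domain methyltransferase of muscle, which was low throughout, at 0.55, 0.87 and 0.87 TPM in ESCs and 0.16, 0.08 and 0.27 TPM in EpiLCs (log2 fold change -2.21, standard error 0.47, adjusted p = 0.00876). The largest called rise was that of Riox1, a JmjC protein of the nucleolus (0.47, standard error 0.08, adjusted p = 0.00303). Without EpiLC replicate 1 or EpiLC replicate 2, 5 falls were called in this list, and without EpiLC replicate 3 there were 7. Of 50 genes for partner subunits of the enzymes, 8 rose, 11 fell and 31 were not called (38.0% called, below the 45.4% of all genes), with a median of -0.03. Tada1, a subunit of the SAGA complex that carries Kat2a or Kat2b, rose by 0.99 (standard error 0.10, adjusted p = 0.000447), and Brpf3, a partner of Kat7, fell by 0.78 (standard error 0.13, adjusted p = 0.00347). Without EpiLC replicate 1, 5 partner subunits rose and 5 fell, and without EpiLC replicate 2, 7 fell.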

How the data were processed

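RNA-seq libraries of 3 WT ESC and 3 WT EpiLC samples were analysed, grouped by the sample labels. According to the submitters' processing notes and the study's methods, strand-specific single-end reads of 76 nt were trimmed with cutadapt 1.16, mapped with STAR 2.5.2a and quantified with RSEM 1.3.0 on mm10, and the study used DESeq2 1.16.1. The authors deposited unnormalized expected counts, RSEM having divided reads that match several genes among those genes. The authors also deposited TPM, scaled for transcript length and library. The sample labels and the study's results give 48 h for the EpiLCs, and its culture methods give a longer time.

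Expected counts were rounded to whole numbers, filtered with filterByExpr, normalized with TMM and compared by the quasi-likelihood test of edgeR 4.0.16 in R 4.3.3, which was tested on simulated data. Expected counts that were not whole made up 4.27% to 4.65% of each library's values. Benjamini-Hochberg adjustment was made over all 14468 genes tested, with a threshold of 0.05. Log2 fold changes are EpiLC over ESC. Shares and sums of TPM were compared with two-sided exact permutation tests. The labels call the samples biological replicates, and the study states that its statistical analyses rest on independent experiments. Per-length TPM is used wherever levels of different genes are compared.

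The members and lists were chosen with earlier results of these data known. The named genes follow a rule: called members with a log2 fold change beyond 1, the largest called rise and fall and the highest TPM of each class, both genes of a pair called in opposite directions, and the largest called rise and fall in each of the other lists. Further members are named to account for each class, and Carm1 and Jmjd1c of the other lists as relatives of members. Promoter windows and positions are from RefSeq on GRCm38.p6, 61 of 73 members matched a window, and 26 had a window at the outermost start of the gene. As alternatives, DESeq2 1.42.0, a replicate block, upper-quartile normalization, omission of the filter, at least 10 counts in every sample, limma 3.58.1 on log2(TPM + 1) and log2(TPM + 0.1), and the omission of each replicate in turn were run.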

Additional observations from a re-analysis of the deposited data

How the results depend on the processing

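No called member changed sign under any alternative run. DESeq2 called 45 members, upper-quartile normalization 41, no filter 42, the minimum of 10 counts 41 and limma 45 on log2(TPM + 1) and 44 on log2(TPM + 0.1). Kdm5a was lost in each of these except DESeq2. Ehmt1 and Prmt8 were gained with DESeq2 and both limma fits, Setd3 with DESeq2, Hdac10 with limma on log2(TPM + 1) and Kdm4d without the filter. Kat2a was called with limma on log2(TPM + 1) (0.20, adjusted p = 0.0191) and on log2(TPM + 0.1) (0.21, adjusted p = 0.0201), and in edgeR's test without ESC replicate 3 (0.19, adjusted p = 0.0474). Across all alternatives, its adjusted p lay between 0.0191 and 0.185.

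The labels give both groups replicate numbers 1 to 3. Deviations from the group means of same-numbered libraries had correlations across genes of 0.0067, 0.19 and 0.17. The values of 0.19 and 0.17 were the highest of any ESC and EpiLC libraries compared, and the libraries concerned correlated best with their own number. The libraries numbered 1 did not. Deviations from a mean of 3 libraries depend on one another, so these correlations cannot show whether same-numbered samples share an experiment. With the replicate block, edgeR called 38 members (20 higher and 18 lower), 37 of them shared with the fit without it (Hdac3, Kdm5a, Prmt3, Setd1a and Sirt3 were lost and Prmt8 was gained), and 6085 of all genes instead of 6571.

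Leaving out each replicate in turn gave 13 to 23 members higher and 13 to 23 lower, a median log2 fold change of -0.048 to 0.10, and 4244 to 7181 genes called in all. Rises and falls ranged from 3 to 5 and 0 to 1 for arginine methyltransferases, 2 to 4 and 2 to 3 for deacetylases, 0 to 4 and 3 to 3 for acetyltransferases, 3 to 5 and 4 to 6 for demethylases, 4 to 6 and 3 to 7 for lysine methyltransferases, 0 to 1 and 1 to 3 for sirtuins, 3 to 4 and 5 to 12 for other writers and erasers, and 5 to 9 and 5 to 11 for partner subunits. These fits have fewer samples. Of the 42 called members, 25 were called in all 6 of them and 17 were lost in at least 1. Kdm5a and Prmt3 were lost in 5 fits, Hdac1, Kat8, Setd1a, Sirt3 and Suv39h1 in 4, Hdac3, Kat14, Kat5, Kdm1a, Kmt2b and Sirt4 in 3, Prmt9 in 2, and Hdac4, Kdm8 and Kmt2d in 1. Calls were gained by Ehmt1 and Prmt8 without ESC replicate 1, by Kmt2a, Prmt7, Setd3 and Sirt7 without ESC replicate 2, and by Kat2a, Kdm4c and Setd6 without ESC replicate 3. Kdm4d, at 0 to 8 counts per library, did not pass the filter on low counts.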
